A study of Mus musculus with 9 samples.

Results

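The nuclear genes that encode the subunits of the oxidative phosphorylation complexes were examined by complex in whole embryonic mouse kidneys. They were chosen by symbol (the *Nduf*, *Sdh*, *Uqcr*, *Cyc1*, *Cox4* to *Cox8* and *Atp5* families) and by a mean of at least 5 FPKM (fragments per kilobase of transcript, scaled to library size) over all libraries. Of 24138 loci in the deposited table, 85 carried such a symbol and 80 passed the minimum, all of them at loci with a single gene name. There were 37 genes of complex I, 4 of complex II, 9 of complex III, 13 of complex IV and 17 of complex V, among 9978 loci that passed the same minimum and were tested. *Ndufab1*, a carrier protein that is also a complex I subunit, was outside the symbol rule. *Ndufa4* was counted with complex I by its symbol, although its protein is now assigned to complex IV. *Atp5s* and *Atp5sl* were counted with complex V by symbol alone.

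Libraries were made from whole kidneys of C57Bl6/J-background mice at E15.5, with 3 kidneys of each genotype taken from 3 crosses. Homozygous kidneys (*Foxd1GC/+;Ntn1fl/fl*, MUT) carry a GFP-Cre in 1 *Foxd1* allele and 2 floxed alleles of *Ntn1*, which encodes the secreted guidance cue netrin 1. Heterozygous kidneys (*Foxd1GC/+;Ntn1fl/+*, HET) carry the same Cre allele and 1 floxed *Ntn1* allele, and wild-type kidneys (*Ntn1fl/fl*, WT) carry 2 floxed alleles and no Cre. Cre acts in Foxd1-expressing stromal progenitors and their descendants only, so a whole kidney mixes them with cells in which *Ntn1* was not targeted, and WT differs from both other genotypes in its *Foxd1* alleles as well. In such bulk samples, fewer cells of a type and less RNA per cell cannot be told apart.

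Oxidative phosphorylation takes place in the inner mitochondrial membrane. Complex I (NADH dehydrogenase) and complex II (succinate dehydrogenase) pass electrons to ubiquinone, complex III (the cytochrome bc1 complex) passes them to cytochrome c, and complex IV (cytochrome c oxidase) passes them to oxygen. Complexes I, III and IV pump protons, and complex V (ATP synthase) uses the resulting gradient to make ATP. Most subunits are encoded in the nucleus and a small set in the mitochondrial genome. In the kidney these complexes are known above all from the proximal tubule, whose reabsorption of solutes depends on them, while early nephron progenitors rely more on glycolysis. Loci of the mitochondrial chromosome were not analysed here.

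Several libraries stood apart in ways that bear on these genes. *Ntn1* was at 26.1, 28.9 and 17.8 FPKM in WT, 12.3, 12.02 and 16.5 in HET, and 10.8, 16.5 and 11.04 in MUT, so every HET and MUT library lay below every WT library while HET and MUT overlapped (two-sided exact permutation p = 0.1 against WT, the smallest that 3 against 3 libraries allow, and 0.5 between MUT and HET). Markers of every kidney cell type listed were detected in every library. Summed proximal tubule markers (6 genes) were 229 to 262 FPKM in WT, 137 to 238 in HET and 156 to 293 in MUT. The highest sum was in MUT-2, where *Fxyd2* alone was at 199 FPKM. Summed liver markers reached 601 FPKM in HET-2, against 24.3 to 48.2 elsewhere, and erythroid markers 1128 against 551 to 704. Summed skeletal muscle markers reached 81.3 FPKM in HET-3, against 1.84 to 4.91 elsewhere. WT-1 and MUT-1 stood apart in the levels of the subunit genes themselves, so each comparison is given with and without those libraries. The number of reads per library is unknown, and precision rests on the spread of 3 libraries a genotype.

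The subunit genes were among the most abundant transcripts of the kidney. Their mean levels ranged from 6.43 FPKM (*Cox4i2*) to 860 FPKM (*Atp5b*), with a median of 181 FPKM against 18.7 FPKM over all loci tested with a transcript length. Of the 80, 69 were among the 1000 loci with the highest mean FPKM. Together they took 3.19% (MUT-1) to 3.89% (MUT-2) of the summed FPKM of a library. The median per gene was 126 FPKM for complex I, 150.0 FPKM for complex II, 249.9 FPKM for complex III, 290.2 FPKM for complex IV and 362 FPKM for complex V, rising in the order of the complexes. FPKM is scaled to transcript length, but a relation to length remained that differed between libraries, as described further on. Levels of genes of unlike length can thus be set beside each other only roughly. They are levels of RNA, and the number of copies of a subunit per complex is not in them.

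The common pattern of the subunit genes differed more between single libraries than between genotypes. With 3 libraries a genotype, a smaller part of genotype cannot be told apart from it. On the log2(FPKM + 1) scale, each gene was expressed as its deviation from its own mean over the 9 libraries. The median deviation of the 80 genes was -0.26, 0.10 and 0.043 in the WT libraries, 0.17, 0.12 and -0.078 in the HET libraries and -0.33, 0.070 and 0.12 in the MUT libraries, each in the order of their numbers 1 to 3, which is kept for all values of single libraries. MUT-1 and WT-1 were low, HET-1 was high, and within each genotype the libraries spread more widely than the genotypes differed. The medians of all loci tested spanned only 0.064 across libraries, against 0.50 for the subunit genes. WT-1 and MUT-1 were the 2 lowest of the 9 libraries for 67 of 80 subunit genes (83.8%) and for 22.2% of all loci tested. MUT-1 was the lowest library for 59 genes and WT-1 for 13.

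**Figure D1:**
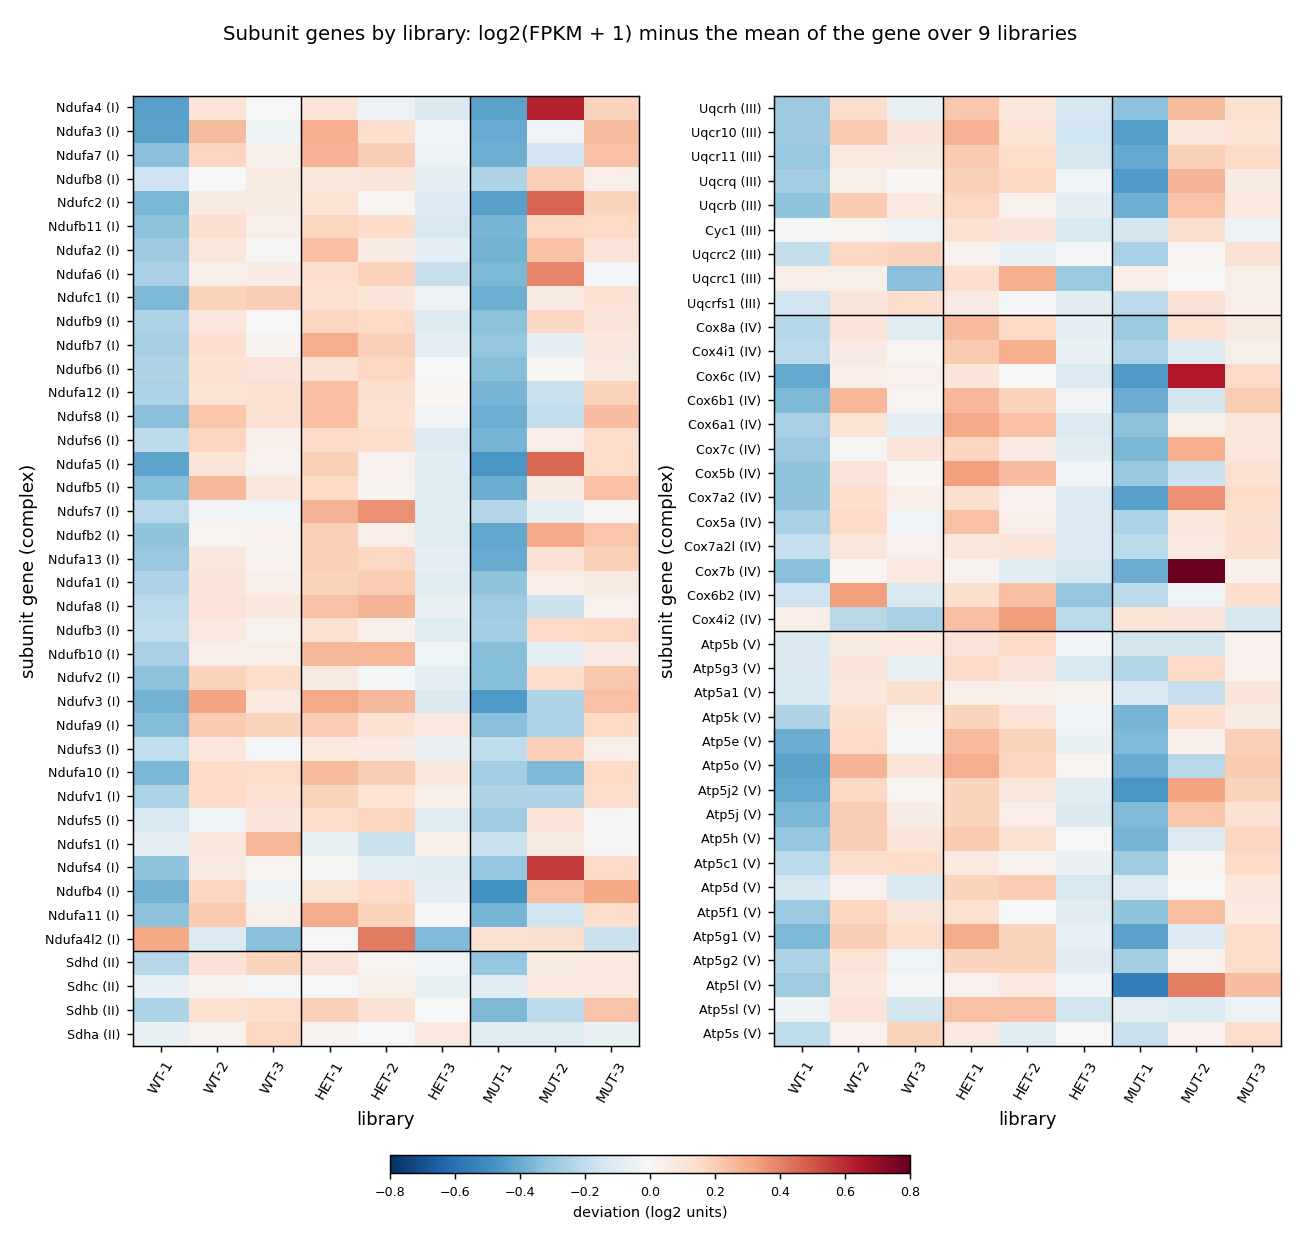
Deviation of each of the 80 subunit genes but 1 (rows, ordered by complex and mean FPKM, complex in parentheses as assigned by symbol) from its own mean over 9 libraries (columns), in log2 units of FPKM + 1. Blue columns mark WT-1 and MUT-1, with medians of -0.26 and -0.33, and MUT-2 holds both the highest values (*Cox7b*, 0.79) and low ones (*Ndufa10*, -0.36).

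All 5 complexes took part in this pattern, and complex II least. In MUT-1 the median deviation was -0.34 for complex I, -0.20 for complex II, -0.33 for complex III, -0.30 for complex IV and -0.32 for complex V. In WT-1 it was -0.29, -0.15, -0.28, -0.26 and -0.24 in the same order. Complexes I, III, IV and V thus moved nearly in parallel, with ranges over the libraries of 0.49 to 0.51, while that of complex II was 0.35. Complex II was also the complex with the longest transcripts, with a median of 1612 nt, against 782 nt for complex I, 535 nt for complex III, 645 nt for complex IV and 748 nt for complex V. After a correction for transcript length, described further on, the order was reversed. Complex II, with only 4 genes, then had the widest range over the libraries, 0.25, against 0.11 to 0.22 in the other complexes.

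**Figure D2:**
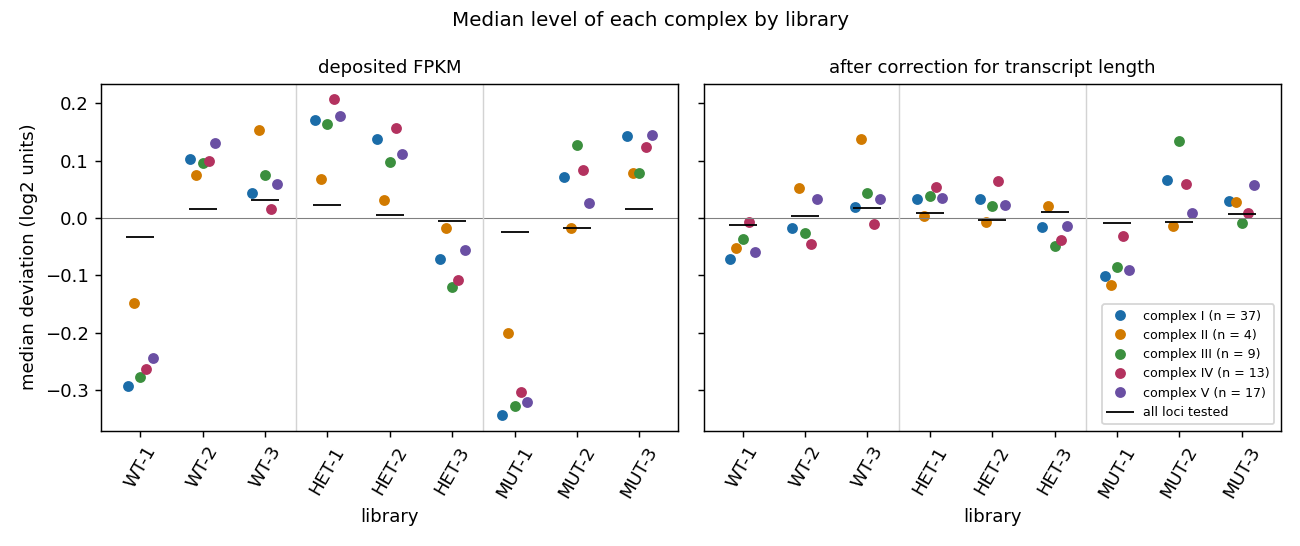
Median deviation of each complex (colored points, n = number of genes) and of all loci tested (black bars) in each of 9 libraries, in log2 units, for the deposited FPKM (left) and after a correction for transcript length within each library (right). The spread of the 80 genes' median over libraries was 0.50 on the left and 0.14 on the right.

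None of the subunit genes differed between genotypes by the test applied to all loci. With limma over 9978 loci and Benjamini-Hochberg adjustment, 0 of 80 genes and 0 loci in all (0% called) had an adjusted p under 0.05 in each of the 3 comparisons, and the smallest adjusted p of a subunit gene was 0.842 (MUT against HET). At an unadjusted p under 0.05, again 0 of 80 were found in each comparison, where 3.9% of all loci passed for MUT against HET, 0.852% for MUT against WT and 0.782% for HET against WT. The standard error of a gene's log2 fold change had a median of 0.16, and every fold change of a subunit gene was between -0.34 and 0.28.

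Between MUT and HET, the comparison in which both genotypes carry Cre, the median log2 fold change of the subunit genes was -0.095, a ratio of 0.936 on the scale of FPKM + 1, and the median of all loci was -0.016. Of 80 genes, 67 were lower and 13 higher in MUT, against 54.1% and 45.8% of all loci. By complex, the medians were -0.12 for complex I (30 of 37 lower), -0.10 for complex II (3 of 4), -0.052 for complex III (9 of 9), -0.071 for complex IV (10 of 13) and -0.11 for complex V (15 of 17). This tally turned on single libraries. Without MUT-1, 44 of the 80 genes were higher in MUT and the median was 0.033. Without MUT-2, only 1 was higher, with a median of -0.17, and without MUT-3, 7 were higher, with a median of -0.16. Leaving out HET-1 or HET-3 gave 26 and 7 higher genes.

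Between MUT and WT the subunit genes were evenly divided, with 39 higher and 41 lower in MUT (48.7% and 51.3% of all loci) and a median of -0.0027. The complex medians were -0.030, -0.098, -0.0068, 0.034 and -0.0019 for complexes I to V. The even division was itself the sum of opposed libraries, since 12 genes were higher without WT-1, 70 without MUT-1, 6 without MUT-2 and 20 without MUT-3. Between HET and WT, 74 of 80 genes were higher and 6 lower in HET (52.5% and 47.5% of all loci) with a median of 0.11, and the complex medians were 0.11, 0.011, 0.074, 0.11 and 0.11. Without WT-1, 34 of 80 were higher, with a median of -0.0077. MUT against HET and HET against WT share the HET libraries, and MUT against WT and HET against WT share the WT libraries, so the 3 tallies are not independent of each other.

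Without WT-1 and MUT-1 together, a setting chosen after the values were seen, the median log2 fold change was 0.033 for MUT against HET, 0.018 for MUT against WT and -0.0077 for HET against WT, with 44, 43 and 34 of 80 genes higher. The backgrounds were 48.7%, 47.9% and 49% of all loci. In that setting 6 genes had an unadjusted p under 0.05 for MUT against HET (3.51% of all loci), all of them higher in MUT, namely *Ndufa4*, *Ndufc2*, *Ndufs4*, *Cox6c*, *Cox7b* and *Atp5l*. Their smallest adjusted p was 0.885. *Atp5l* alone had such a p for MUT against WT (2.19% of all loci), again higher in MUT, and 0 genes had one for HET against WT (0.631%). These 6 genes are among those with the highest values in the single library MUT-2, described further on.

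Over all alternatives, the number of subunit genes with an unadjusted p under 0.05 by limma was at most 13 for MUT against HET, 9 for MUT against WT and 3 for HET against WT. Each of these maxima came from leaving out 1 library. Without MUT-3, 13 genes were lower in MUT than in HET, with log2 fold changes of -0.50 to -0.35, where 12.1% of all loci had such a p, and the smallest adjusted p of the set was 0.407. They were *Ndufa7*, *Ndufa8*, *Ndufa9*, *Ndufa10*, *Ndufa11*, *Ndufa12*, *Ndufb10*, *Ndufs8*, *Ndufv1*, *Ndufv3*, *Sdhb*, *Cox5b* and *Atp5o*. Without MUT-1, 9 other genes were higher in MUT than in WT, with log2 fold changes of 0.35 to 0.51 (2.07% of all loci, adjusted p of 1.00), namely *Ndufa4*, *Ndufa5*, *Ndufb2*, *Ndufb4*, *Ndufc2*, *Ndufs4*, *Cox6c*, *Cox7b* and *Atp5l*. Without HET-3, *Ndufs7*, *Cox4i2* and *Atp5sl* were higher in HET than in WT, with log2 fold changes of 0.27 to 0.43 (6.06% of all loci, smallest adjusted p of 0.774), and 6 genes were lower in MUT than in HET (7.93%, 0.599). For MUT against HET without MUT-1, 3 genes had such a p (2.18% of all loci), all higher in MUT, so the direction differed between leaving out MUT-3 and leaving out MUT-1.

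Separation of genotypes without overlap was seen for 1 subunit gene in 1 comparison. *Sdha* (mm10 chr13:74322254-74350240), the flavoprotein that oxidizes succinate, was at 114, 121 and 133 FPKM in WT, 121, 118 and 125 in HET and 111, 111 and 114 in MUT. Every MUT library lay below every HET library, with a log2 fold change of -0.12 (s.e. 0.11) and an unadjusted p of 0.298 from limma. Among all loci, 4.44% showed this order, so 1 of 80 subunit genes is under that background. In the other direction 5.1% of all loci and 0 subunit genes did. Between MUT and WT (1.3% of loci above, 1.32% below) and between HET and WT (2.06% above, 0.952% below) 0 subunit genes separated.

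Among the core subunits of complex I, which carry the electrons, *Ndufv1*, which binds NADH and flavin, was at 69.1, 92.2 and 89.5 FPKM in WT, 93.5, 89.1 and 84.9 in HET and 69.8, 69.9 and 91.2 in MUT. *Ndufs1*, which holds iron-sulfur clusters, was at 57.1, 64.1 and 72.7 FPKM in WT, 57.8, 53.1 and 62.2 in HET and 53.04, 63.3 and 60.7 in MUT. *Ndufv1* was low in WT-1, MUT-1 and MUT-2, whereas *Ndufs1*, with a transcript of 2625.5 nt the longest of complex I, was lowest in MUT-1 and HET-2 and highest in WT-3. Their log2 fold changes between MUT and HET were -0.22 (s.e. 0.15) and 0.031 (s.e. 0.12), respectively. *Ndufs1* also had the lowest fold change of all 80 genes between HET and WT, -0.16 (s.e. 0.12), and it was the only complex I gene below 0 there.

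*Ndufs7*, which carries the last iron-sulfur cluster before ubiquinone, was at 106, 123 and 122 FPKM in WT, 151, 161 and 117 in HET and 106, 118 and 126 in MUT. It was high in HET-1 and HET-2 only, and HET-3 lay below WT-2 and WT-3, so the genotypes overlapped. Its log2 fold change between HET and WT, 0.28 (s.e. 0.14), was the highest of the 80 genes, with an unadjusted p of 0.0738 from limma. In the deposited table *Ndufs7* and *Atp5d* lie in the same merged span on chromosome 10, which each shares with 27 other tested loci, so no position of their own is given.

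Among the accessory subunits of complex I, *Ndufa10* (chr1:92439718-92473758) had the lowest fold change between MUT and HET, -0.34 (s.e. 0.17), with an unadjusted p of 0.0701. Its FPKM was 65.8, 94.3 and 94.3 FPKM in WT, 101, 97.4 and 90.6 in HET and 69.9, 65.8 and 94.8 in MUT. WT-1, MUT-1 and MUT-2 were low and the other 6 libraries were between 90.6 and 101 FPKM. *Ndufa8*, an accessory subunit on the intermembrane side, had the smallest p of complex I in this comparison (0.0606, log2 fold change -0.29, s.e. 0.14), with 132, 135 and 108 FPKM in HET and 91.7, 99.1 and 115 in MUT. MUT-3 lay above HET-3, so the groups overlapped. *Ndufv3*, a small accessory subunit, was at 70.04, 114 and 96.1 FPKM in WT, 113, 109 and 84.2 in HET and 66.5, 76.7 and 108 in MUT. It was low in WT-1, MUT-1 and MUT-2 as *Ndufa10* was, and its fold changes were -0.30 (s.e. 0.21) between MUT and HET and -0.16 (s.e. 0.21) between MUT and WT. *Ndufa9*, an accessory subunit near the ubiquinone site, was at 71.2, 105 and 103 FPKM in WT, 105, 98.7 and 96.04 in HET and 72.1, 76.05 and 102 in MUT, again low in the same 3 libraries.

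*Ndufs4*, an accessory subunit that stabilizes the NADH-binding arm, went the other way in MUT-2. It was at 45.1, 59.6 and 57.2 FPKM in WT, 56.96, 53.5 and 52.8 in HET and 45.4, 83.7 and 62.9 in MUT, so that MUT-2 lay above all other libraries and MUT-1 beside the lowest, WT-1. The log2 fold change was 0.19 (s.e. 0.19) between MUT and HET and 0.21 (s.e. 0.19) between MUT and WT. *Ndufa4*, the most abundant of the genes grouped with complex I, was at 380.3, 555 and 513 FPKM in WT, 555, 497 and 475 in HET and 382, 789 and 582 in MUT. It too was highest in MUT-2 and lowest in WT-1 and MUT-1, and its fold change between MUT and WT, 0.23 (s.e. 0.23), was the highest of the 80 in that comparison.

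The 4 genes of complex II, which also belong to the citric acid cycle, were at like levels of 119 to 191 mean FPKM. *Sdhb*, the iron-sulfur subunit, was at 124, 159.6 and 162 FPKM in WT, 168, 159.7 and 147 in HET and 114, 127 and 172 in MUT and had the smallest p of complex II between MUT and HET (0.215, log2 fold change -0.22, s.e. 0.17). The membrane anchors were more even. *Sdhc* was at 145, 155 and 151 FPKM in WT, 152, 157 and 145 in HET and 142, 161 and 160.3 in MUT, with the narrowest range of the complex (1.13-fold between its lowest and highest library). *Sdhd* was at 162, 207 and 216 FPKM in WT, 205, 193 and 186 in HET and 154, 199 and 201 in MUT. MUT-1 was the lowest library for *Sdhb*, *Sdhc* and *Sdhd* and MUT-2 for *Sdha*. None of the 4 genes had a fold change larger than 2 times its standard error in any comparison.

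In complex III, *Cyc1* (cytochrome c1) was at 188, 192 and 183 FPKM in WT, 206, 203 and 174 in HET and 171, 207 and 184 in MUT and stayed within a 1.21-fold range. *Uqcrfs1*, the Rieske iron-sulfur protein, was at 127, 151 and 155 FPKM in WT, 149, 140.3 and 132 in HET and 122, 153 and 147 in MUT, with MUT-1 and WT-1 lowest. The core proteins differed from each other. *Uqcrc1* was at 157, 157 and 120.2 FPKM in WT, 167, 186 and 123 in HET and 157, 152 and 157 in MUT, lowest in WT-3 and HET-3 and highest in HET-2, and *Uqcrc2* was at 139, 178 and 179.6 FPKM in WT, 162, 152 and 158 in HET and 132, 161 and 173 in MUT, lowest in MUT-1 and WT-1 and highest in WT-3. Their transcripts differ in GC content (57.5% and 44.4%) and less in length (1653 and 1896 nt). The small subunits *Uqcrh* (424 mean FPKM, the most abundant of the complex) and *Uqcrq* (256) were lowest in MUT-1 and highest in MUT-2. *Uqcrq* was at 209, 262 and 256 FPKM in WT, 289.6, 284 and 249 in HET and 185, 305 and 265 in MUT and had the smallest p of complex III between MUT and HET (0.418, log2 fold change -0.15, s.e. 0.18).

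In complex IV, *Cox5b* (chr1:36691486-36693388), a nuclear subunit on the matrix side, had one of the lowest fold changes between MUT and HET, -0.30 (s.e. 0.16) with an unadjusted p of 0.0878 from limma. It was at 229.5, 308 and 290.2 FPKM in WT, 361, 340.3 and 283 in HET and 233, 255 and 313 in MUT. HET-1 and HET-2 were the highest libraries, but MUT-3 lay above HET-3. *Cox5a*, its partner on the same side, was at 216, 287 and 252 FPKM in WT, 304, 267 and 239.6 in HET and 216, 273 and 283 in MUT with a log2 fold change of -0.071 (s.e. 0.15). *Cox6c*, a membrane subunit, was at 402, 553 and 546 FPKM in WT, 569.7, 533 and 494 in HET and 390.0, 831 and 594 in MUT, and *Cox7b* (chrX:106015699-106022450), another membrane subunit, was at 149.7, 191 and 199 FPKM in WT, 192, 178 and 172 in HET and 143, 327 and 194 in MUT. Both were far above all other libraries in MUT-2 and lowest in MUT-1. *Cox7b* had the highest fold change of the 80 genes between MUT and HET, 0.21 (s.e. 0.24), with an unadjusted p of 0.415. Without MUT-2 the fold change was -0.12.

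In complex V, the catalytic subunits *Atp5a1* and *Atp5b* were the most even of the complex. *Atp5b*, the beta subunit that makes ATP, was at 791, 903 and 905 FPKM in WT, 921, 954 and 842 in HET and 775, 773 and 878 in MUT. *Atp5a1*, the alpha subunit, was at 577, 666 and 687 FPKM in WT, 648, 645 and 641 in HET and 576, 552 and 672 in MUT. Both were lowest in MUT-2 and MUT-1, with *Atp5b* ranging 1.23-fold and *Atp5a1* 1.25-fold over the libraries. Between MUT and HET the log2 fold change was -0.16 (s.e. 0.12) for *Atp5b* and -0.11 (s.e. 0.13) for *Atp5a1*. *Atp5c1*, the gamma subunit of the rotor, was at 281, 359 and 362 FPKM in WT, 344, 332 and 314 in HET and 267, 329 and 362 in MUT with MUT-1 and WT-1 lowest. *Atp5d*, the delta subunit of the rotor, was at 244, 276 and 248 FPKM in WT, 306, 312 and 247 in HET and 250.4, 269.7 and 286 in MUT and had the smallest p of complex V between HET and WT (0.233, log2 fold change 0.16, s.e. 0.13). *Atp5o*, part of the stalk that holds the catalytic head still, was at 337, 547 and 485 FPKM in WT, 554, 512 and 458 in HET and 342, 389 and 524 in MUT and had the lowest fold change of the complex between MUT and HET, -0.30 (s.e. 0.20). Low values of *Atp5o* in WT-1, MUT-1 and MUT-2 were set against 458 to 554 FPKM in the other 6 libraries.

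The 3 genes of the c ring, *Atp5g1*, *Atp5g2* and *Atp5g3*, encode the same mature subunit behind different import sequences. *Atp5g3* supplied most of their RNA, at 587, 681 and 611 FPKM in WT, 706, 679 and 580.2 in HET and 539, 708 and 652 in MUT. *Atp5g1* was at 146, 215 and 207 FPKM in WT, 231, 212 and 179 in HET and 139, 175 and 208 in MUT and *Atp5g2* at 140.1, 179 and 162 FPKM in WT, 188, 188 and 156 in HET and 137, 169 and 184 in MUT. MUT-1 was the lowest library for all 3. Between MUT and HET the log2 fold changes were -0.26 (s.e. 0.19) for *Atp5g1*, -0.12 (s.e. 0.15) for *Atp5g2* and -0.054 (s.e. 0.14) for *Atp5g3*.

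Several subunits of complex IV exist as isoforms from separate genes, one made in most tissues and one restricted. The general isoforms dominated in these kidneys. *Cox4i1* was at 511, 618 and 597 FPKM in WT, 682, 719 and 567 in HET and 497, 549 and 611 in MUT, and *Cox4i2*, an isoform linked to lung and to low oxygen, was at 6.63, 5.29 and 5.15 FPKM in WT, 7.67, 8.28 and 5.32 in HET and 6.94, 6.90 and 5.66 in MUT, just above the minimum. *Cox4i1* was highest in HET-2 and HET-1 and lowest in MUT-1 and WT-1. *Cox4i2* was highest in the same HET libraries and lowest in WT-3 and WT-2, and WT-1 and MUT-1 were not among its 3 lowest. The log2 fold change of *Cox4i2* between HET and WT was 0.26 (s.e. 0.16) with an unadjusted p of 0.138, and between MUT and WT 0.17 (s.e. 0.16) with 0.331, the smallest of complex IV in both. Its locus shares its span in the table with *Bcl2l1*.

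*Cox6b1* was at 351, 542 and 458 FPKM in WT, 542, 509 and 442 in HET and 341, 406 and 518 in MUT, and *Cox6b2*, an isoform known from testis, was at 23.04, 32.9 and 23.8 FPKM in WT, 28.6, 30.9 and 20.8 in HET and 22.3, 25.3 and 28.8 in MUT. *Cox6b1* followed the common pattern, whereas *Cox6b2* was lowest in HET-3 and highest in WT-2. The general isoforms *Cox6a1* (393 mean FPKM), *Cox7a2* (276) and *Cox8a* (709.6) were all lowest in MUT-1. *Cox7a2l* was at 198 mean FPKM. Its fold changes were -0.029 (s.e. 0.13), 0.016 (s.e. 0.13) and 0.045 (s.e. 0.13) for MUT against HET, MUT against WT and HET against WT. *Cox8a*, the most abundant gene of the complex, was at 600.1, 755 and 658 FPKM in WT, 841, 786 and 667 in HET and 573, 766 and 741 in MUT.

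The heart and skeletal muscle isoforms *Cox6a2*, *Cox7a1* and *Cox8b* were all under the minimum. *Cox6a2* was at 3.26 FPKM in HET-3 and at most 0.262 in the other 8 libraries. *Cox8b* was at 1.41 FPKM in HET-3 and at most 0.488 in the others. HET-3 was also the library with 81.3 FPKM of summed skeletal muscle markers, whose part in this was not tested. *Cox7a1*, the gene nearest below the minimum with a mean of 3.94 FPKM, did not share this and was lowest in HET-3 (2.38 FPKM against 2.54 to 5.59 elsewhere). *Cox7b2* had a mean of 0.0363 FPKM and *Cox8c* was listed at 0 in every library.

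*Ndufa4l2*, a paralog of *Ndufa4* known as a target of the hypoxia-inducible factors, did not follow *Ndufa4*. It was at 18.4, 13.5 and 11.4 FPKM in WT, 14.7, 19.9 and 11.2 in HET and 16.02, 16.1 and 12.9 in MUT. HET-2 and WT-1 were highest and HET-3 and WT-3 lowest, and the genotypes overlapped. The 3 fold changes were 0.0064 (s.e. 0.20), 0.073 (s.e. 0.20) and 0.066 (s.e. 0.20) in the order given above. Its span in the table is shared with *Shmt2*.

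**Figure D3:**
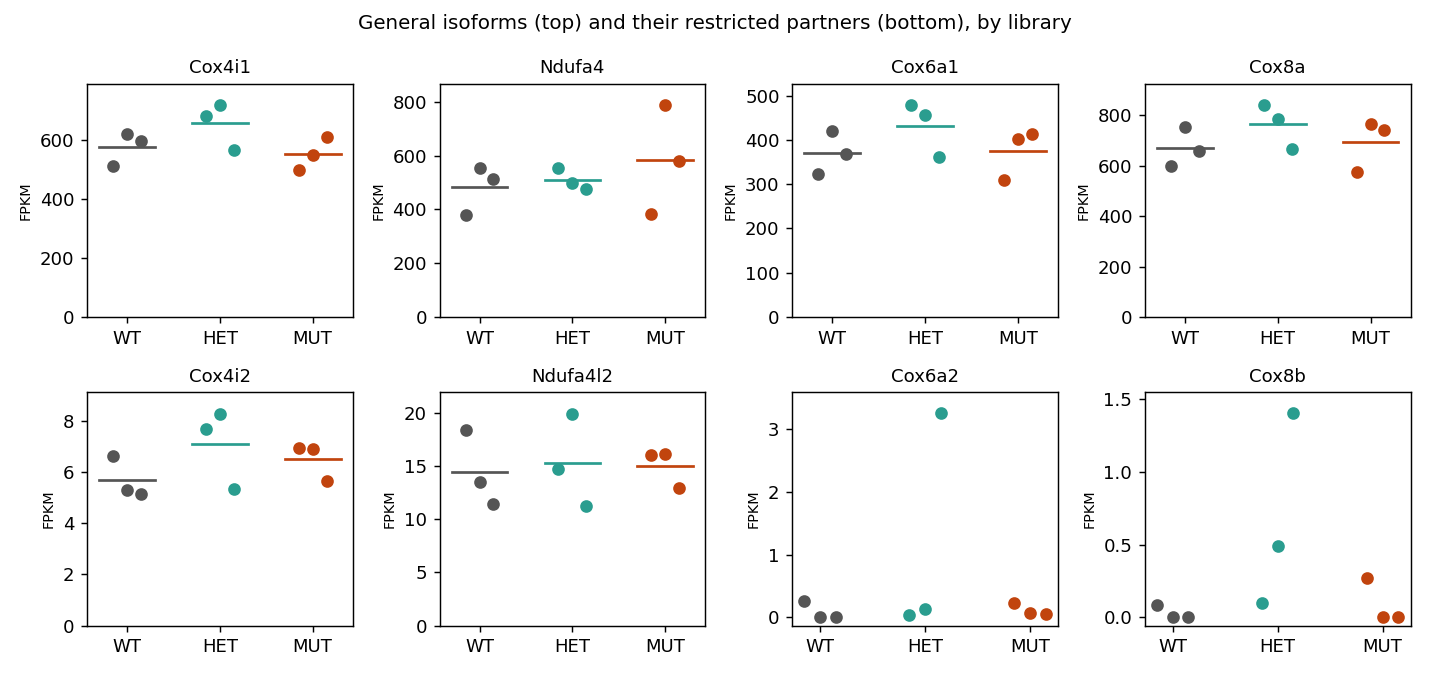
FPKM of 4 general subunit genes (top) and of a related restricted gene for each (bottom) in 3 WT, 3 HET and 3 MUT libraries. Points are libraries 1 to 3 from left to right and lines are means, left out for the 2 genes listed at 0 in some libraries. *Cox6a2* and *Cox8b* stand out in HET-3 alone, at 3.26 and 1.41 FPKM.

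The library pattern of the subunit genes ran with transcript length. Their transcripts had a median length of 746 nt, with 52 of 80 under 1000 nt, against a median of 2630 nt for all tested loci with a length. Across all 9933 such loci, the deviation in a library correlated with log2 length at r = 0.45 in WT-1, 0.54 in MUT-1 and -0.37 in HET-1, and across the 80 subunit genes at 0.37, 0.46 and -0.43 (descriptions over genes of the same libraries, with no test). Short transcripts were thus low in WT-1 and MUT-1 and high in HET-1 whether or not they encoded a subunit. Loci outside the set with transcripts under 1000 nt had a median deviation of -0.25 in WT-1, -0.26 in MUT-1 and 0.15 in HET-1, and those of 5000 nt and over 0.18, 0.21 and -0.13.

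The fold changes between genotypes showed the same relation. Among loci outside the set, the median fold change of MUT against HET went from -0.11 under 1000 nt (919 loci) through -0.085 from 1000 nt up to 2000 nt to 0.11 at 5000 nt and over (1320 loci), and that between HET and WT from 0.11 to -0.11. The 52 subunit genes under 1000 nt had medians of -0.12 and 0.13 in these comparisons, close to the other loci of their length, and the 22 genes from 1000 up to 2000 nt had -0.037 and 0.045. The 6 longest subunit genes, from 2000 up to 3000 nt, had medians of -0.11 between MUT and HET and -0.12 between MUT and WT. The other loci of that length were at -0.030 and -0.014. These lengths, which the length correction also uses, are medians over annotated transcripts and may not be those of the expressed ones. *Ndufb2* and *Atp5g1*, among these 6 genes, have coding sequences of only 318 and 411 bases. *Ndufv3*, with a length of 645 nt, has a coding sequence of 1407 bases.

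**Figure D4:**
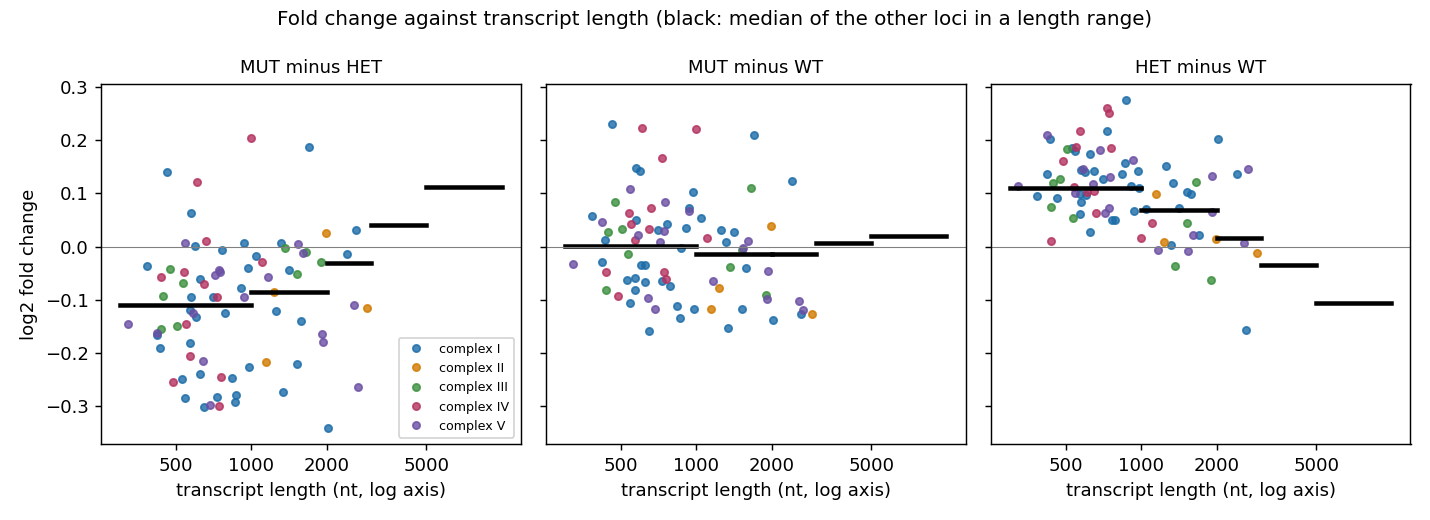
Log2 fold change of the 80 subunit genes (points, colored by complex) against transcript length in nt on a log axis, for 3 comparisons. Black lines give the median of the other tested loci in 5 ranges of length, which runs from -0.11 to 0.11 between MUT and HET and from 0.11 to -0.11 between HET and WT.

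When length was removed by a spline within each library, the common pattern shrank. The median deviations of the 80 genes then spanned 0.14 over the libraries, with -0.044 in WT-1 and -0.084 in MUT-1 still the lowest and 0.057 in MUT-2 the highest. The median log2 fold changes were 0.015 for MUT against HET, 0.020 for MUT against WT and 0.029 for HET against WT, with 42, 46 and 53 of 80 genes higher against 48.6%, 50.7% and 51.4% of all loci. Standard errors fell too, from a median of 0.16 to 0.090. With this precision, 4 genes were lower in MUT than in HET at an unadjusted p under 0.05 (4.3% of all loci), namely *Ndufa8*, *Ndufa11*, *Ndufb10* and *Cox5b*, with log2 fold changes of -0.17 to -0.18 and an adjusted p of 0.810. *Atp5e*, the epsilon subunit of ATP synthase, was higher in MUT than in WT (1.6% of all loci had such a p) and *Ndufa3* and *Atp5e* were higher in HET than in WT (1.24%), with adjusted p of 0.992 and 1.00 from limma. After correction for length and GC content together, 43, 47 and 50 of 80 genes were higher in the 3 comparisons, against 49.2%, 51.1% and 53.7% of all loci. In this setting *Ndufs7* (log2 fold change -0.22, s.e. 0.076) and *Ndufa8* (-0.15, s.e. 0.067) were lower in MUT than in HET at an unadjusted p under 0.05 (7.27% of all loci), *Ndufa4* (0.38, s.e. 0.14) was higher in MUT than in WT (2.62%), and 0 genes had such a p between HET and WT (1.66%).

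Base composition marked a further difference between libraries that the medians do not show. Within the set, the deviation in HET-2 was higher at a higher GC content of the transcript (r = 0.77 over 80 genes), as it was in HET-1 (0.51), and it went the other way in WT-3 (-0.48) and MUT-2 (-0.42). Over all 9933 loci the values were 0.33, 0.25, -0.53 and -0.12. HET-2 was also the library with 601 FPKM of summed liver markers, whose part in this was not tested. Split at 52.0% GC, the 40 GC-rich subunit genes had a median deviation of 0.18 in HET-2 and -0.0018 in MUT-2, and the 40 GC-poor ones had 0.046 and 0.13. For MUT against HET the median log2 fold change was -0.15 in the GC-rich genes and -0.044 in the GC-poor genes, and between HET and WT 0.14 and 0.068. Both sets of genes come from the same libraries, and the difference between them was not tested.

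**Figure D5:**
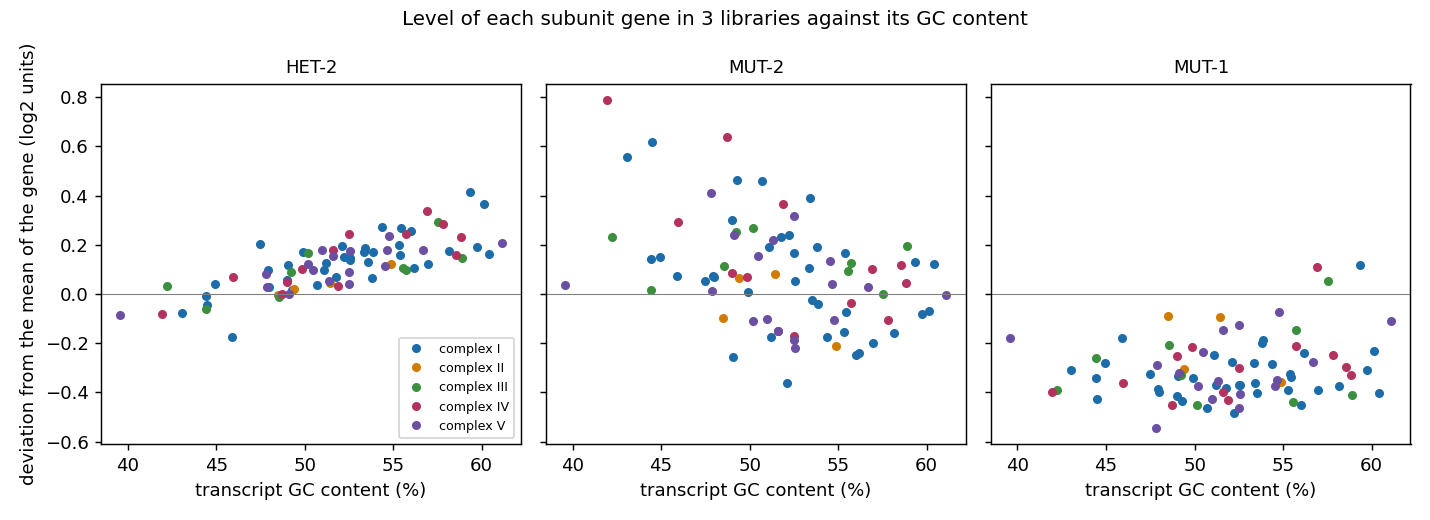
Deviation of the 80 subunit genes from their own means (log2 units) against transcript GC content (%) in HET-2, MUT-2 and MUT-1, colored by complex. The points rise with GC content in HET-2 (r = 0.77) and fall in MUT-2 (r = -0.42), while in MUT-1 77 of 80 lie below their own mean (r = 0.22) and the 3 above it are *Ndufa4l2*, *Cox4i2* and *Uqcrc1*.

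The subunit genes were spread most widely in MUT-2. Its deviations had a standard deviation of 0.22 over the 80 genes, against 0.076 to 0.13 in the other 8 libraries, and MUT-2 was the highest library for 22 genes while 28 genes were below their own mean. The highest were *Cox7b* (0.79), *Cox6c* (0.64), *Ndufa4* (0.62) and *Ndufs4* (0.56), followed by *Ndufc2*, *Ndufa5* and *Atp5l*. The lowest were *Ndufa10* (-0.36), *Ndufa9* (-0.26), *Ndufv3* (-0.25), *Ndufv1* (-0.24) and *Atp5o* (-0.22). Genes of complex I were thus found at both ends. Within complexes I, IV and V the standard deviation was also highest in MUT-2 (0.24, 0.29 and 0.18), whereas within complex III it was 0.099 in MUT-2 and 0.17 in MUT-1, and within complex II 0.14 in both. MUT-2 was also the library with the highest sum of proximal tubule markers, 293 FPKM, of which *Fxyd2* made up 199. *Hnf4a* was highest there too, while *Slc34a1* and *Slc27a2* lay within the range of the other libraries. *Lrp2* (10.2 FPKM) and *Cubn* (3.23) were lower there than in every WT library. Summed cell cycle markers were lowest in MUT-2, at 253 FPKM against 299 to 394 elsewhere. The part of these markers in the spread was not tested. Many of the subunit genes have processed pseudogenes, and how reads that match several places were assigned is not given in the sources used here.

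The contrast can be read in a pair of complex IV subunits with short coding sequences. *Cox7b* and *Cox6b1* (chr7:30616973-30626151) were the genes of that complex with at most 300 coding bases that were highest and lowest in MUT-2, and were chosen for this after the values were seen. *Cox7b* in MUT-2 stood at 327 FPKM, against 143 to 199 FPKM in the other 8 libraries. *Cox6b1* in MUT-2 stood at 406 FPKM, under the 442 to 542 FPKM of all libraries but WT-1 (351) and MUT-1 (341). Their coding sequences (mm10 transcripts of GENCODE, start and stop codons in capitals) show the lower GC content of *Cox7b*, 47.3% over 243 bases against 53.3% over 261 bases, within transcripts of 42.0% and 51.6% GC. The other genes of the complex with such short coding sequences did not all follow GC content. *Cox7a2* (51.9% transcript GC) and *Cox8a* (58.5%) deviated by 0.36 and 0.12 in MUT-2, where *Cox6b1* deviated by -0.15. *Cox6c* (48.7%), *Cox7c* (46.0%) and *Cox6b2* (55.7%) deviated by 0.64, 0.29 and -0.037. The part of GC content in this was not tested.
Cox7b coding sequence, mRNA sense: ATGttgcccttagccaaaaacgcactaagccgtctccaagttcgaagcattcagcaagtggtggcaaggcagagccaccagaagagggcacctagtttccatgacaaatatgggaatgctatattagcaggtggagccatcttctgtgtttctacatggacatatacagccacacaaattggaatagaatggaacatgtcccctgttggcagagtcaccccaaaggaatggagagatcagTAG
Cox6b1 coding sequence, mRNA sense: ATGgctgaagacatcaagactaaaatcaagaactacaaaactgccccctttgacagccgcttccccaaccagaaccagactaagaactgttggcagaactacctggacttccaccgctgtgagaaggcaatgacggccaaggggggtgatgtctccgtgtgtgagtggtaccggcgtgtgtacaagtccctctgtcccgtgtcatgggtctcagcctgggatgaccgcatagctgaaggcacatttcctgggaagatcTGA

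Promoters of the set were examined for 2 motifs, whose part in the common pattern was not tested. That pattern was shared by short transcripts outside the set. Nuclear respiratory factor 1 (NRF1) and the ETS factor GABP are known regulators of respiratory chain genes. RefSeq promoters on GRCm38.p6, from 250 bases before to 50 after the start, were matched by symbol for 63 of the 80 genes, the first listed where a gene had several. The NRF1 half-site TGCGCA, which reads the same on both strands, was in 17 of 63 (27.0%), in 15.8% of 7690 promoters of the other loci tested and in 8.06% of all 27025 promoters of that length. The ETS core CCGGAAG, on either strand, was in 15 of 63 (23.8%), against 19.9% and 9.12%. One or the other was in 28 of 63 (44.4%), against 32.2% and 15.8%, and both were in 4 (6.35%), against 3.50% and 1.36%. The letters of the 2 motifs do not allow them to overlap, and a match describes letters and not a bound site.

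The 4 promoters with both motifs belong to *Cox6a1*, *Sdhd*, *Ndufb6* and *Atp5l*, of complexes IV, II, I and V. The first 2, those of the more abundant genes, are shown with each motif in capitals (the ETS core appears as its reverse complement).
Cox6a1 promoter, GRCm38.p6 chr5:115348909-115349208, minus strand: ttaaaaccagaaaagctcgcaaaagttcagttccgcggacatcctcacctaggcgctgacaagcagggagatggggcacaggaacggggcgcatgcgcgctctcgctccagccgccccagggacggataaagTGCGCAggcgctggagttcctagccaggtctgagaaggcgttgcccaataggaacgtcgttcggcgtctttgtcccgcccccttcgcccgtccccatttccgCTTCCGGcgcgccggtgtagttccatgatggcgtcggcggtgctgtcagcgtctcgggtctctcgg
Sdhd promoter, GRCm38.p6 chr9:50603800-50604099, minus strand: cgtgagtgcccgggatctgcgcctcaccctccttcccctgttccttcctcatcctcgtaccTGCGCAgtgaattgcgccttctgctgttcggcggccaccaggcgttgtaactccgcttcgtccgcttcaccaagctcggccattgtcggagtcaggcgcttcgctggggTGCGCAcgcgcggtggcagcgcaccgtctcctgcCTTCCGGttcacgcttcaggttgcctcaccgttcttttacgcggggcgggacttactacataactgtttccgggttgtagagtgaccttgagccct
Of the genes behind these promoters, *Cox6a1* was at 324, 420.5 and 368 FPKM in WT, 479, 457 and 360.3 in HET and 309.5, 401 and 414 in MUT, and its log2 fold change was -0.21 (s.e. 0.16) between MUT and HET and 0.22 (s.e. 0.16) between HET and WT. For *Sdhd*, whose values are given above, the fold changes were -0.085 (s.e. 0.15) and 0.0080 (s.e. 0.15). Both were lowest in MUT-1 and next lowest in WT-1.

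The factors that build the complexes and regulate their genes were examined from lists of symbols. For complexes I, II, III, IV and V, 13, 4, 5, 21 and 4 assembly factors were tested, and 0 had an adjusted p under 0.05 in any comparison. At an unadjusted p under 0.05 there were 2 between MUT and HET, where 3.9% of all loci passed, and 0 in the other comparisons. They were *Ecsit*, a complex I assembly factor, at 18.2, 18.2 and 14.9 FPKM in HET and 13.4, 14.2 and 14.7 in MUT (log2 fold change -0.26, unadjusted p of 0.0323 from limma), and *Cox18*, which inserts a complex IV subunit into the membrane, at 11.6, 11.6 and 9.91 and 8.24, 7.94 and 9.15 (log2 fold change -0.35, unadjusted p of 0.0148). All 3 MUT libraries lay below all 3 HET libraries for both genes, as in 4.44% of all loci, and *Cox18* was at 8.16, 10.2 and 10.8 FPKM in WT. Between MUT and HET, the median log2 fold changes of the assembly factors of complexes I to V were -0.069, 0.0030, -0.13, -0.069 and 0.054. Those of the subunits were -0.12, -0.10, -0.052, -0.071 and -0.11. Only complex IV had nearly equal medians. After the length correction, these were -0.012 for its assembly factors and 0.044 for its subunits.

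Of 13 listed regulators of mitochondrial biogenesis, 12 were tested, and 0 had an adjusted or unadjusted p under 0.05 in any comparison by limma. *Nrf1* was at 20.1, 18.8 and 19.8 FPKM in WT, 20.3, 21.1 and 20.4 in HET and 20.9, 18.3 and 19.3 in MUT, a flat profile in which WT-1 and MUT-1 were not low and every HET library lay above every WT library, as in 2.06% of all loci. *Gabpa*, the DNA-binding subunit of GABP, was at 29.01, 23.4 and 31.3 FPKM in WT, 23.6, 22.3 and 29.5 in HET and 30.2, 27.98 and 24.03 in MUT, under 25 in WT-2, HET-1, HET-2 and MUT-3 and at 27.98 or above in the other 5 libraries. *Tfam*, which packages and transcribes the mitochondrial genome, was at 22.4, 27.1 and 28.6 FPKM in WT, 25.99, 24.3 and 26.9 in HET and 22.97, 25.3 and 28.1 in MUT, lowest in WT-1 and MUT-1, and its transcript is short (899 nt). *Ppargc1a*, the coactivator PGC-1alpha, was at 6.61, 4.25 and 7.12 FPKM in WT, 4.17, 4.19 and 5.27 in HET and 4.86, 5.86 and 3.79 in MUT. The list had a median length of 3619.8 nt and a median fold change of 0.094 between MUT and HET and -0.053 between HET and WT, opposite in sign to the subunit genes in both. After the length correction the medians were 0.054 and -0.014.

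Carriers that serve the chain also held 0 calls and 0 unadjusted p under 0.05 among 8 tested. *Cycs*, the somatic cytochrome c, was at 20.99, 26.7 and 30.1 FPKM in WT, 25.5, 22.8 and 25.2 in HET and 19.05, 39.5 and 27.1 in MUT and was highest in MUT-2, as *Cox7b* was. *Slc25a5*, an adenine nucleotide carrier, was at 407, 569.8 and 583 FPKM in WT, 564, 517 and 505 in HET and 382, 428 and 512 in MUT and was low in WT-1, MUT-1 and MUT-2, as *Atp5o* was. The 8 genes had a median fold change of -0.067 between MUT and HET and 0.065 between HET and WT.

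Ribosomal protein genes were lower in WT-1 and MUT-1 too. The cytosolic list has short and abundant transcripts like the subunit genes, with a median length of 777.5 nt and 98.7% of genes among the 1000 loci of highest mean FPKM, whereas the mitochondrial list has a median of 1226 nt and 16.4%. The 79 cytosolic ribosomal protein genes tested had median deviations of -0.34 in WT-1, -0.31 in MUT-1 and 0.20 in HET-1, and the 73 mitochondrial ones -0.26, -0.28 and 0.15. Between MUT and HET their median fold changes were -0.14 and -0.13, and between HET and WT 0.17 and 0.10, with 79 of 79 and 70 of 73 genes higher in HET, against 52.5% of all loci. Without WT-1, 57 of 79 (72.2%) and 31 of 73 (42.5%) were higher, against 49% of all loci, and the medians were 0.040 and -0.020. The mitochondrial tally thus turned on WT-1, as that of the subunit genes did. The cytosolic tally shrank without WT-1 but stayed above the share of all loci. With all 9 libraries, 1 cytosolic and 4 mitochondrial ribosomal protein genes had an unadjusted p under 0.05 between MUT and HET by limma. These were 1.27% and 5.48% of the lists, against 3.9% of all loci, and 0 genes had an adjusted p under 0.05.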

How the data were processed

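Per the labels, total RNA of whole E15.5 kidneys was made into stranded poly(A)-selected libraries. The authors aligned reads with STAR to mm10, assembled transcripts with Cufflinks and deposited FPKM values computed with Cuffdiff. Versions and the handling of reads with several matches are not given in the sources used here. Read depth is unknown, which leaves counting error out of all values.

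The members, lists and rules were chosen with earlier results of these data known. Loci with a mean of at least 5 FPKM over 9 libraries entered 1 limma model (limma 3.58.1, R 4.3.3) of log2(FPKM + 1) (lmFit, eBayes with a trend, all 9 libraries together, two-sided), with Benjamini-Hochberg adjustment over 9978 loci at 0.05. This scale understates fold changes of low genes. Transcript length and GC content are medians over the basic transcripts of a gene in GENCODE release M21 (9933 loci, 99.55%). Only protein-coding transcripts were used where a gene had any. Length and GC content were removed by splines with 5 degrees of freedom in each library. Of the members, 77 have a RefSeq gene of their symbol, and all 77 loci overlap it on GRCm38.p6. Steps were tested on simulated data.

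Named genes are, per comparison, the gene with the smallest p of each complex and the 3 with the highest and lowest fold change, and the most abundant gene of each complex, core subunits, isoform families and the gene next above the minimum. Genes with an unadjusted p under 0.05 under the alternatives described, and those at the ends of MUT-2, were named after their values were seen. Alternatives covered the pseudocount, FPKM minimum, scaling, trend, libraries in the fit, replicate block, length, GC content and each library left out. 1 subunit gene is counted in every total but is not reported here by name or drawn in the plot by gene. Other lists are markers, assembly factors, regulators, carriers, the citric acid cycle, the 13 mitochondrially encoded subunits (none in the table given here) and ribosomal proteins. Python 3.11.15, numpy 2.4.6, pandas 2.3.3 and matplotlib 3.10.9 were used.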

Additional observations from a re-analysis of the deposited data

How the results depend on the processing

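Of 26 alternatives, 1 (without WT-1 and MUT-1) was chosen after seeing the data. No subunit gene had an adjusted p under 0.05 in any of them by limma, the smallest being 0.407 (without MUT-3), 0.662 (without WT-1) and 0.774 (without HET-3) for MUT against HET, MUT against WT and HET against WT. The number of subunit genes higher in MUT than in HET, 13 as reported, was 29 under quantile normalization, 42 after the length correction, 43 after correction for length and GC content with or without the replicate block, 44 without WT-1 and MUT-1, and 1 (without MUT-2) to 44 (without MUT-1) with 1 library left out. For MUT against WT, 39 as reported, it was 6 (without MUT-2) to 70 (without MUT-1). For HET against WT, 74 as reported, it was 59 under quantile normalization, 34 without WT-1 and MUT-1, and 34 (without WT-1) to 76 (without WT-2 or HET-3). The cause was not tested. Called loci, all outside the set and named after their values were seen, numbered 1 without an FPKM minimum (*Crisp1*) and 4 after the length and GC correction (*Akr1b7*, *Fxyd3*, *Fxyd4* and *Pllp*) for MUT against WT. With 1 library left out they numbered 0 to 1 for MUT against HET (*Snora68*, without MUT-2), 0 to 2 for MUT against WT (*Snora68* and *Plet1* without MUT-2, *Snord35a* and *Spink8* without WT-2) and 0 to 1 for HET against WT (*Snord35a*, without WT-2). Of 3120 values of the 40 named genes, 275 changed sign and none was called.

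The correlations of same-numbered libraries varied in sign and size. Deviations of same-numbered libraries correlated at -0.32, 0.057 and -0.14 between MUT and HET, 0.56, -0.26 and -0.035 between MUT and WT, and -0.19, -0.054 and 0.17 between HET and WT, and the same number correlated best in 5 of 18 sets. With the replicate block, fold changes were the same, 0 loci were called, and 530, 168 and 111 loci had an unadjusted p under 0.05, against 389, 85 and 78 without it. Whether a number stands for a cross was not given in the sources used here. The correlations cannot decide it, since the libraries also differed with transcript length and GC content.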

Other observations

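The enzymes of the citric acid cycle, which feed complexes I and II, were mostly lower in MUT, although none of the 13 tested had an unadjusted or adjusted p under 0.05 by limma in any comparison. Their median log2 fold change was -0.16 between MUT and HET (10 of 13 lower) and -0.091 between MUT and WT (12 of 13 lower), where 54.1% and 51.3% of all loci were lower, and 0.035 between HET and WT. After the length correction the first 2 medians were -0.077 and -0.070. The list has a median transcript length of 2492 nt, and so does not share the short transcripts of the subunit genes.

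The subunits of isocitrate dehydrogenase had the 3 lowest fold changes of the list between MUT and WT. *Idh3a*, its catalytic subunit, was at 45.4, 49.99 and 58.05 FPKM in WT, 52.5, 48.04 and 50.6 in HET and 41.3, 45.9 and 44.9 in MUT. Every MUT library lay below every HET library, as in 4.44% of all loci, and MUT-2 lay above WT-1. The log2 fold change was -0.19 between MUT and HET (unadjusted p of 0.12 from limma) and -0.21 between MUT and WT (unadjusted p of 0.096). *Idh3b* was at 93.97, 108 and 115 FPKM in WT, 114, 111 and 98.6 in HET and 89.2, 87.6 and 101 in MUT and *Idh3g* at 69.9, 93.3 and 90.3 FPKM in WT, 90.5, 91.5 and 80.6 in HET and 67.7, 67.8 and 86.6 in MUT, with MUT-1 and MUT-2 lowest and MUT-3 within the range of HET and WT. *Mdh2*, malate dehydrogenase, was at 208, 263 and 249 FPKM in WT, 285, 285 and 240.2 in HET and 205, 215 and 256 in MUT, and its fold change between MUT and HET was -0.26. *Ogdh*, part of the oxoglutarate dehydrogenase complex, was at 29.96, 22.6 and 20.1 FPKM in WT, 21.6, 27.6 and 23.4 in HET and 31.1, 26.3 and 21.4 in MUT, highest in MUT-1 and WT-1, the libraries in which the subunit genes were lowest. It was the only gene of the list above 0 between MUT and WT.

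*Dlst*, another part of the oxoglutarate dehydrogenase complex, was at 63.9, 64.2 and 69.5 FPKM in WT, 67.7, 72.2 and 65.8 in HET and 62.2, 60.1 and 62.3 in MUT. Every MUT library lay below every HET library and every WT library, orders found in 4.44% and 1.32% of all loci. The log2 fold change was -0.15 between MUT and HET (unadjusted p of 0.151 from limma) and -0.096 between MUT and WT (unadjusted p of 0.355). *Idh3a* and *Dlst* were the genes of the list without overlap between MUT and HET, and *Dlst* the one without overlap between MUT and WT.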
